A study of Mus musculus with 4 samples.

Results

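The perineuronal net and lectican matrix genes described here are 10 genes of the 32286 features counted in every library. They were taken by symbol from the feature list: the lecticans *Acan*, *Bcan*, *Ncan* and *Vcan*, the link proteins *Hapln1*, *Hapln2* and *Hapln4*, the tenascins *Tnr* and *Tnc*, and the hyaluronan synthase *Has3*. Single-nucleus RNA-seq had been performed on cortex and hippocampus of 5-week-old mice, 1 mouse per library. Both genotypes carry the same homozygous floxed *Sel1L* allele. The 2 control libraries are labelled Sel1L flox/flox and have no other labelled allele, and the 2 libraries labelled Sel1L Syn-Cre also carry a Cre driven by the Synapsin I promoter, which is used to target neurons. The question was how RNA of these matrix genes was distributed over cell classes and whether it differed between genotypes, above all in Pvalb-like and Lamp5-like interneurons, oligodendrocyte precursor cell (OPC)-like, oligodendrocyte-like and astrocyte-like nuclei.

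Perineuronal nets are lattices of extracellular matrix that wrap the soma and proximal dendrites of certain neurons, most prominently fast-spiking parvalbumin interneurons. Their backbone is hyaluronan, made at the plasma membrane by hyaluronan synthases such as HAS3. Lecticans, which are chondroitin sulfate proteoglycans, bind hyaluronan at their N-terminal end. Link proteins of the HAPLN family lock that contact, and tenascin-R crosslinks the lecticans at their C-terminal end. Neurons, astrocytes and cells of the oligodendrocyte lineage all contribute components, so the place of transcription need not be the place of deposition.

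In the GENCODE annotation of GRCm38, *Vcan* (ENSMUSG00000021614) lies on the minus strand at chr13:89655312-89742509 and *Hapln1* (ENSMUSG00000021613) on the plus strand at chr13:89539796-89611652. The gap between this lectican and link protein gene is 43659 bases, with 0 protein-coding genes inside it. *Bcan* (ENSMUSG00000004892, chr3:87987531-88000230) and *Hapln2* (chr3:88021750-88027583) are 21519 bases apart, and *Ncan* (chr8:70093085-70120873) and *Hapln4* (chr8:70083457-70090862) 2222 bases apart. *Tnr* lies at chr1:159523769-159931729, *Tnc* at chr4:63959785-64047015, *Acan* at chr7:79053483-79115099 and *Has3* at chr8:106870242-106884566. A counted gene on the other strand overlaps *Vcan* (*Gm4117*), *Tnr* (*Gm38039*), *Tnc* (*8030451A03Rik*) and *Has3* (*Chtf8*), and *Gm10530* overlaps *Tnr* on its own strand. The strand setting of the counting is not given in the sources used here, so reads of such partners cannot be told apart.

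The RefSeq table (GRCm38.p6) holds a promoter for 8 of the 10 genes. The 250 bases before a RefSeq start are shown for *Vcan* and *Hapln1*, the neighbouring pair with the highest RNA levels in Lamp5-like neurons, and for *Bcan*, the member that differed in Pvalb-like neurons. Each is written 5′ to 3′ on the strand of its gene, and capitals mark a GC box (GGGCGG) or a CCAAT box (CCAAT) on either strand. Positions are chr13:89742513-89742762 for *Vcan* (minus strand), chr13:89540386-89540635 for *Hapln1* (plus strand) and chr3:88000357-88000606 for *Bcan* (minus strand). The *Hapln1* window lies inside the gene as annotated by GENCODE, which starts at base 89539796, so it does not precede that start.
Vcan: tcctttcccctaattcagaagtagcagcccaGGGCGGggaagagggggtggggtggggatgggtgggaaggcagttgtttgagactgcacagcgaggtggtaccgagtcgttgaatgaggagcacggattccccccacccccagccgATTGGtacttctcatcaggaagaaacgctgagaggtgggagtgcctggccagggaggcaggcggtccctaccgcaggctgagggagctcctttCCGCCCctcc
Hapln1: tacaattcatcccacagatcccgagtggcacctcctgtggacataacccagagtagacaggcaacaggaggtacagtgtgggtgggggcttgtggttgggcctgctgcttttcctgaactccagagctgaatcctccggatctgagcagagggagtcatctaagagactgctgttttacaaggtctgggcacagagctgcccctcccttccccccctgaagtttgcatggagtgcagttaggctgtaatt
Bcan: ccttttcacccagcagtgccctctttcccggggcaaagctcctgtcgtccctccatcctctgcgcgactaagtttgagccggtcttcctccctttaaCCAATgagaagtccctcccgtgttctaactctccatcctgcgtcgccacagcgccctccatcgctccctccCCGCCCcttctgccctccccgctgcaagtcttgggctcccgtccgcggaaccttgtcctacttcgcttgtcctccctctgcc
The *Vcan* window holds 2 GC boxes and 1 CCAAT box, the *Bcan* window 1 of each, and the *Hapln1* window 0. For comparison, 32.7% of all 32851 promoter windows of this length hold a GC box and 33.8% a CCAAT box. The motifs of the unfolded protein and amino acid responses were searched on both strands: the ER stress response element (0.113% of all windows), in which a CCAAT box is a part, TGACGTGG (0.563%) and TTGCATCA (0.791%). They had 0 matches in the windows of the 8 genes. TATAAA (12.4% of all windows) and CAGCTG (13.0%) had 0 matches in the 3 windows shown. The search is a description of letters in these windows.

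After filtering, 33305 nuclei remained, with 11106 and 7864 in the libraries labelled Sel1L flox/flox and 7534 and 6801 in those labelled Sel1L Syn-Cre. Deposited totals were 74082610 to 122870443 unique molecular identifiers (UMIs) per library, and pairs of libraries shared 10 to 34 cell barcodes. Levels are given as CPM, that is, UMIs of a gene per 1000000 UMIs of all nuclei of that class in that library. The label check did not show lower RNA of the targeted gene: *Sel1l* was at 97.0 and 90.1 CPM in the libraries labelled Sel1L flox/flox and at 155 and 128 CPM in those labelled Sel1L Syn-Cre. These UMIs are summed over the whole gene, so they cannot show whether a floxed part of it was cut out. At the protein level, the paper that reported these data describes SEL1L loss in subsets of neurons of Sel1L Syn-Cre mice. Cre RNA had 234 and 217 UMIs in the libraries labelled Sel1L Syn-Cre, 415 UMIs in Sel1L flox/flox replicate 1 and 0 in replicate 2. It was not limited to neurons: in the Syn-Cre libraries it was at 17.4 and 11.6 CPM in OPC-like nuclei, 8.43 and 7.91 CPM in Lamp5-like and 29.4 and 25.2 CPM in Pvalb-like neurons, with 2 UMIs in astrocyte-like and 0 in oligodendrocyte-like nuclei. In flox/flox replicate 1, Cre RNA was at 29.4 CPM in Pvalb-like and 11.6 CPM in Lamp5-like neurons. *Sel1l* was at 92.3 and 89.9 against 460 and 305 CPM in Pvalb-like neurons. In Lamp5-like neurons it was at 110 and 125 against 283 and 222 CPM. In both, flox/flox replicate 1 lay nearer to replicate 2 than to either Syn-Cre library. *Sel1l* was at 123 and 93.3 against 423 and 186 CPM in OPC-like nuclei. It was at 112 and 105 against 300 and 184 CPM in oligodendrocyte-like and at 94.4 and 69.6 against 94.98 and 77.0 CPM in astrocyte-like nuclei. Replicate 1 of each genotype had RNA of the Y-linked *Ddx3y* (48.7 and 48.3 CPM) and replicate 2 of each had *Xist* (1617 and 1473 CPM), so both genotypes held 1 library of each kind. The labels are therefore used as labels, and fold changes without flox/flox replicate 1 are given beside each member called. Such a fit leaves 1 control library, so no p is given for it. That library is the one with *Xist*, while the Syn-Cre libraries are of both kinds, so the balance is lost. Cortical and hippocampal neuron classes were recovered together with glial and vascular ones, 19 classes in all, and each of the 5 classes compared most closely was named from 5 to 7 detected markers.

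**Figure D1:**
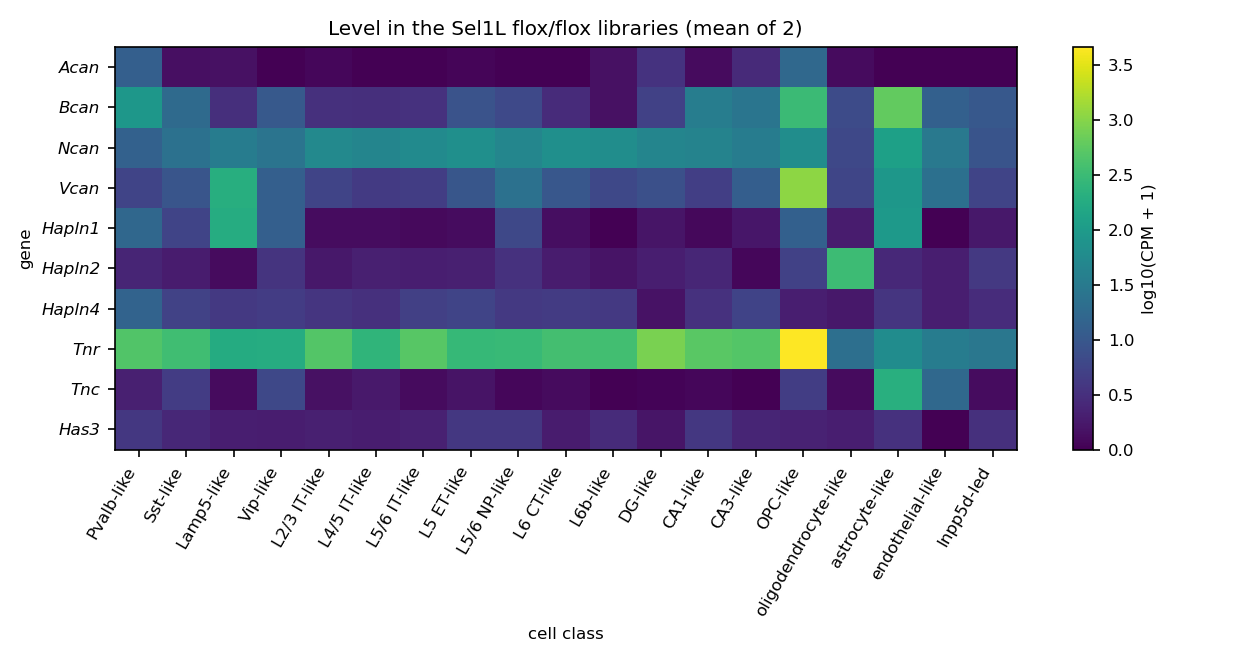
Level of the 10 genes (rows) in 19 cell classes (columns), as log10(CPM + 1) of the mean of the 2 libraries labelled Sel1L flox/flox; lighter is higher. *Tnr* and *Vcan* peak in OPC-like nuclei, *Hapln2* in oligodendrocyte-like nuclei, *Tnc* and *Bcan* in astrocyte-like nuclei and *Hapln4* in Pvalb-like neurons.

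Each gene had its own distribution over classes, which is described here without a test. *Tnr*, the crosslinker, was highest in OPC-like nuclei, at 4679 and 4514 CPM in the libraries labelled Sel1L flox/flox. DG-like granule neurons followed at 890 and 801 CPM, and Pvalb-like neurons stood at 483 and 437 CPM. Oligodendrocyte-like nuclei had the lowest mean, at 24.0 and 17.8 CPM, in a range that overlapped with the Inpp5d-led (36.2 and 18.0 CPM) and endothelial-like (50.7 and 15.7 CPM) nuclei. *Vcan* was also highest in OPC-like nuclei (1060 and 1115 CPM), followed by Lamp5-like neurons (228 and 161 CPM) and astrocyte-like nuclei (98.3 and 73.6 CPM). These ranges did not overlap, and 68.4% of all *Vcan* UMIs lay in OPC-like nuclei.

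*Bcan* was highest in astrocyte-like nuclei (558 and 640 CPM), then in OPC-like nuclei (292 and 341 CPM) and in Pvalb-like neurons (85.8 and 87.3 CPM). Among neurons, Pvalb-like ones were followed by CA1-like ones at 36.6 and 32.2 CPM, whereas Lamp5-like neurons had 2.33 and 1.85 CPM. *Ncan* was more even: astrocyte-like nuclei led at 126 and 115 CPM, and the ranges of L6 CT-like, L5 ET-like, L6b-like and OPC-like nuclei, next in order at means of 60.5 to 66.7 CPM, overlapped with their neighbours in that order. *Acan*, the classical net marker, was at 16.1 and 16.5 CPM in OPC-like nuclei and at 11.5 and 12.04 CPM in Pvalb-like neurons. DG-like neurons came next at 2.30 and 2.51 CPM. Of its 335 UMIs, 33.7% lay in Pvalb-like neurons and 28.7% in OPC-like nuclei.

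The link proteins were the most divided. *Hapln2* was a gene of oligodendrocyte-like nuclei, at 318 and 318 CPM, with 93.1% of its UMIs there. The next class, OPC-like nuclei, had 4.23 and 3.98 CPM. *Hapln1* was highest in Lamp5-like neurons (181 and 192 CPM), then in astrocyte-like nuclei (112 and 77.7 CPM) and Pvalb-like neurons (14.6 and 17.2 CPM). *Hapln4* was highest in Pvalb-like neurons at 14.6 and 12.9 CPM, and the next class, L5 ET-like neurons, had 4.21 and 5.06 CPM. *Tnc*, the other tenascin, was at 261 and 147 CPM in astrocyte-like nuclei, which held 78.5% of its UMIs. *Has3* had 519 UMIs in all kept nuclei and a mean of at most 2.97 CPM in any class of the flox/flox libraries and 3.82 CPM of the Syn-Cre libraries, so no order of classes could be read from it.

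Shape over classes was compared with that of 14814 other genes by Pearson's r of log2(CPM + 1) across the 19 class means, as a description. The classes share libraries and differ in depth, so no p is given. *Vcan* was most like *Has2* (r = 0.924), another hyaluronan synthase, followed by *Mmp15* (0.902) and *Brca1* (0.868). *Hapln1* was most like *6530411M01Rik* (0.917), *Sox1* (0.891) and *Sfta3-ps* (0.877), and *Acan* like *Gm26633* (0.893), *Gpnmb* (0.857) and *Zfp280b* (0.769). For *Bcan* the nearest were *Gdf11* (0.864), *Chpt1* (0.859) and *C230035I16Rik* (0.856), and for *Ncan* they were *Adgrl1* (0.925), *Tmem29* (0.903) and *Gm11417* (0.871). *Hapln2* was nearest to *Gm48508* (0.978), *Gm48370* (0.976) and *Gm42756* (0.973), and *Hapln4* to *Gm13832* (0.835), *Stac2* (0.812) and *Slc25a26* (0.811). The gene most like *Tnr* was *Gm38039* (0.941), before *D630045J12Rik* (0.889) and *Myt1* (0.884), and the gene most like *Tnc* was *8030451A03Rik* (0.989), before *Gm29571* (0.958) and *Fgfr3* (0.936). *Gm38039* and *8030451A03Rik* are the partners that overlap *Tnr* and *Tnc* on the other strand.

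In Lamp5-like neurons, a class of cortical interneurons that includes neurogliaform cells, *Vcan* fell. It was at 228 and 161 CPM (392 and 174 UMIs) in the libraries labelled Sel1L flox/flox and at 74.9 and 53.6 CPM (80 and 61 UMIs) in those labelled Sel1L Syn-Cre. The highest of the latter was below the lowest of the former, and the fitted log2 fold change was -1.71 (SE 0.22, adjusted p = 0.00372, edgeR quasi-likelihood test with Benjamini-Hochberg adjustment). A *Vcan* UMI was found in 54.0% and 42.9% of the Lamp5-like nuclei of the flox/flox libraries and in 29.8% and 20.3% of those of the Syn-Cre libraries. After thinning each nucleus to 2000 UMIs the shares were 25.3% and 21.6% against 15.7% and 7.81%, and 0 to 0.524% in the unnamed Inpp5d-led cluster, taken as background. A two-sided exact permutation test of the thinned Lamp5-like shares gave p = 0.333, the smallest that 2 libraries against 2 allow. Before thinning, the 5 richest nuclei held 23.2% and 25.3% of the *Vcan* UMIs in the flox/flox and 33.8% and 50.8% in the Syn-Cre libraries. *Hapln1*, the chromosomal neighbour of *Vcan*, was at 181 and 192 against 98.3 and 129 CPM, groups that did not overlap either. Its thinned shares of nuclei did overlap, at 22.2% and 32.0% against 14.9% and 23.4% (two-sided exact permutation test, p = 0.667). A single nucleus held 22 of its 105 UMIs in Syn-Cre replicate 1. Its log2 fold change was -0.80 (SE 0.16), and its adjusted p of 0.0506 in the same edgeR test missed the threshold of 0.05 and lay on either side of it under alternative settings.

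*Ncan* was at 23.8 and 42.5 against 17.8 and 22.0 CPM in Lamp5-like neurons (log2 fold change -0.77, SE 0.32, edgeR adjusted p = 0.384) and *Tnr* at 229 and 128 against 153 and 144 CPM (-0.39, SE 0.23, adjusted p = 0.57). Neither passed, and the *Tnr* groups overlapped. Thus 1 of the 4 members tested in this class was called, beside 0.52% of the 10391 genes tested (54 genes). That *Vcan* was lower here was known when the members were chosen, so nothing is read from this count. Of all genes tested, 42.2% had groups that did not overlap. The median log2 fold change of the 4, *Vcan* among them, was -0.79, beside 0.00 for all genes tested, and nothing is read from it either. Without flox/flox replicate 1, the control library with Cre RNA, *Vcan* was still lower, with a log2 fold change of -1.38 against the 1 control library left. *Gm4117*, which overlaps *Vcan*, was at 8.72 and 10.2 against 15.9 and 14.1 CPM in this class, the other way round. Summed Lamp5 markers ran from 926 to 1294 against 808 to 997 CPM, OPC markers from 105 to 110 against 94.1 to 97.4 CPM and oligodendrocyte markers from 74.4 to 97.9 against 32.5 to 51.5 CPM. The part of these shifts in the *Vcan* difference was not tested.

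**Figure D2:**
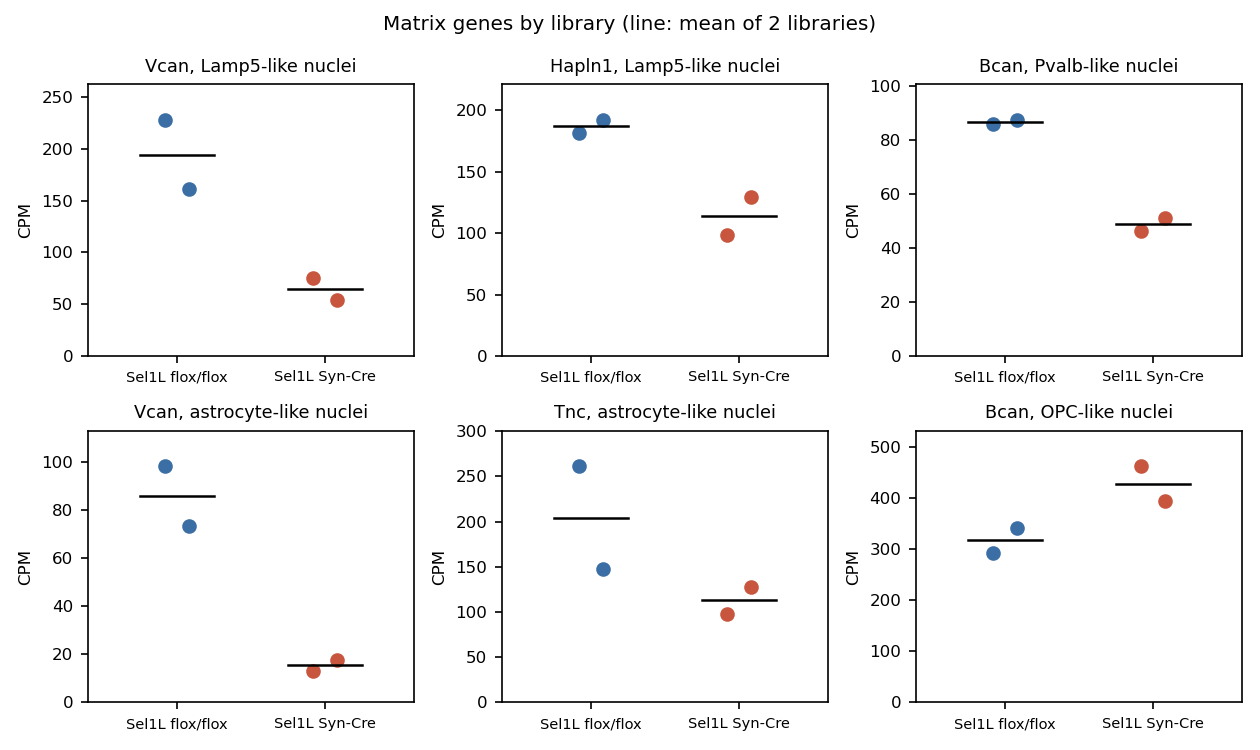
CPM (vertical axes, from 0) of 6 combinations of gene and class in each of the 4 libraries, with points for libraries and lines for the mean of 2. *Vcan* in Lamp5-like neurons lies at 161 CPM or more in the libraries labelled Sel1L flox/flox and at 74.9 CPM or less in those labelled Sel1L Syn-Cre, while *Bcan* in OPC-like nuclei lies the other way round.

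In Pvalb-like neurons, the interneurons known for dense nets, *Bcan* fell and *Acan* was not called. *Bcan*, the short lectican abundant in adult brain, was at 85.8 and 87.3 CPM in the libraries labelled Sel1L flox/flox and at 46.0 and 51.2 CPM in those labelled Sel1L Syn-Cre. The difference of the means, 86.6 ± 1.05 against 48.6 ± 3.64 CPM (SD, n = 2), was far larger than the spread within either group. The edgeR log2 fold change was -0.90 (SE 0.16, adjusted p = 0.0026), and -0.89 without flox/flox replicate 1, with 1 control library left. In the Inpp5d-led cluster, taken as background, *Bcan* was at 7.36 and 11.2 against 11.04 and 8.55 CPM. Summed astrocyte markers, from the class with the highest *Bcan*, were at 32.3 to 52.7 against 32.3 to 57.4 CPM and OPC markers at 79.1 to 106 against 80.6 to 82.4 CPM. Every marker of both lists had a UMI in each library except *Aqp4*, *Olig2* and *C1ql1*, which were at 0 in Syn-Cre replicate 2. Pvalb markers ran from 1134 to 1294 against 932 to 1062 CPM, and their part in the result was not tested.

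*Acan* had 41 and 28 against 23 and 21 UMIs in Pvalb-like neurons, that is 11.5 and 12.04 against 10.1 and 8.81 CPM. Its log2 fold change was -0.38 (SE 0.31, edgeR adjusted p = 0.589), with a nominal 95% interval from -0.99 to 0.22, so a change of moderate size was not detectable at this depth. After thinning each nucleus to 2000 UMIs, which left out 5 of 926 nuclei, an *Acan* UMI was found in 3 of 289 and 3 of 216 nuclei of the flox/flox libraries and in 3 of 210 and 2 of 206 nuclei of the Syn-Cre libraries (two-sided exact permutation test of the shares, p = 1). The smallest p that 2 libraries against 2 allow is 0.333. Without thinning the shares were 10.5 ± 1.203% and 9.54 ± 1.19%. In comparison, 0 of 921 thinned nuclei of the Inpp5d-led cluster, whose leading genes include *Siglech* and *Ly86*, held an *Acan* UMI, which allows a share of up to 0.326%, after 1325 of its 2246 nuclei were left out as shallower. Median depths before thinning were 10282 UMIs in Pvalb-like nuclei and 1834 in that cluster, and the limit covers counting error only.

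Other members in Pvalb-like neurons were not called. *Hapln1* was at 14.6 and 17.2 against 11.4 and 6.29 CPM (log2 fold change -0.91, SE 0.32, edgeR adjusted p = 0.136), and *Hapln4*, a link protein with 13.4% of its UMIs in this class, at 14.6 and 12.9 against 10.1 and 8.81 CPM (-0.62, SE 0.30, adjusted p = 0.297). After thinning to 2000 UMIs, the share of nuclei with a *Hapln4* UMI was not lower, at 2.42% and 2.78% against 3.81% and 2.43%. That of *Hapln1* was at 4.15% and 2.78% against 2.38% and 1.94%. *Tnr* was at 483 and 437 against 356 and 426 CPM (-0.31, SE 0.14, edgeR adjusted p = 0.275). *Ncan* overlapped between groups, at 16.3 and 9.46 against 15.4 and 15.5 CPM. Of 6 members tested, 1 was called and 3 had an unadjusted p under 0.05, beside 5.08% of 12157 genes called and 17.3% with such a p. The median log2 fold change of the 6 was -0.50, beside 0.01 for all genes, and 48.2% of all genes had groups that did not overlap. The members were chosen with earlier results of these data known, so no shift of the set is read from this median.

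Genes that make, bind or cleave the matrix were read from 4 lists. The lists were chosen with earlier results of these data known, so nothing is read from their counts of genes called in any class. In Pvalb-like neurons, where 5.08% of all genes were called, 1 of 5 tested genes of hyaluronan synthesis, binding and turnover was called. *Cemip*, which binds hyaluronan and takes part in its breakdown, fell from 719 and 573 to 355 and 444 CPM (log2 fold change -0.77, SE 0.16, edgeR adjusted p = 0.00893). Among 9 tested proteoglycans, receptors and net partners, 2 fell and 1 rose. *Ptprs*, a receptor for chondroitin sulfate proteoglycans, fell from 266 and 266 to 178 and 195 CPM (-0.58, SE 0.13, edgeR adjusted p = 0.0174). *Crtac1*, a secreted antagonist of the Nogo receptor, fell from 126 and 127 to 63.6 and 69.2 CPM (-1.004, SE 0.15, edgeR adjusted p = 0.000777). *Sema3a*, a repellent that binds to nets, rose from 26.9 and 31.4 to 64.5 and 54.1 CPM (0.96, SE 0.18, edgeR adjusted p = 0.00536). The 4 genes had groups that did not overlap, as did 48.2% of all genes tested in this class. They were also called when classes were named without integration, beside 5.39% of 12397 genes.

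**Figure D3:**
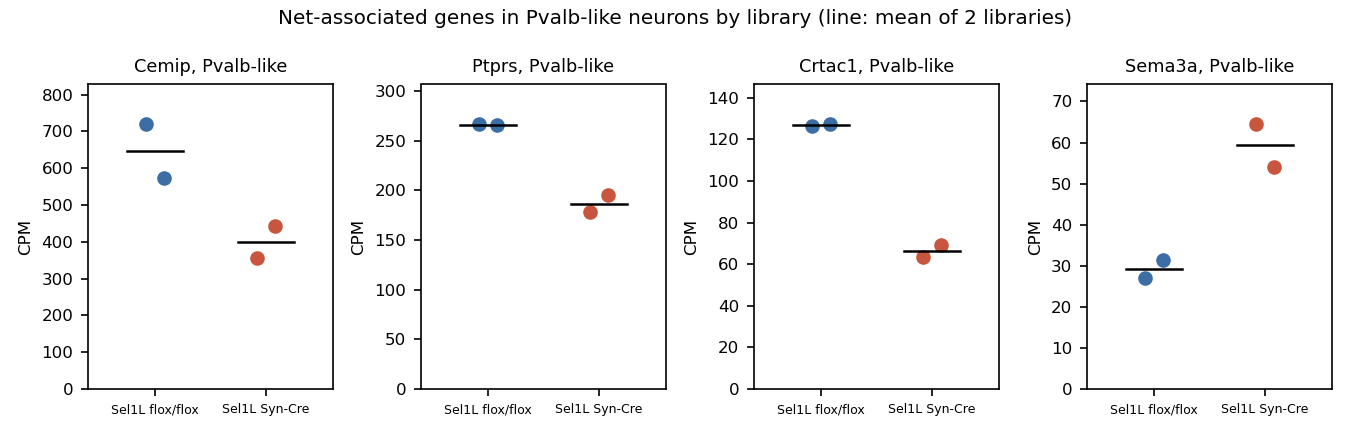
CPM (vertical axes, from 0) of the 4 list genes called in Pvalb-like neurons, with 1 point per library and lines for the mean of 2. *Cemip*, *Ptprs* and *Crtac1* are lower and *Sema3a* is higher in both libraries labelled Sel1L Syn-Cre.

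For chondroitin sulfate synthesis 0 of 15 genes were called in Pvalb-like neurons by edgeR or DESeq2 (4 with an unadjusted p under 0.05), and for matrix proteases and inhibitors 0 of 7 by either tool (2 with such a p). In Lamp5-like neurons 0 of 15, 4, 3 and 8 tested genes of the 4 lists were called by either tool, with 1, 1, 0 and 2 at an unadjusted p under 0.05. The same held in oligodendrocyte-like nuclei, with 0 of 14, 3, 4 and 10 called by either tool (2, 1, 1 and 2 unadjusted), and in astrocyte-like nuclei, with 0 of 14, 4, 6 and 9 (1, 1, 0 and 2 unadjusted). Of all genes tested, edgeR called 0.52% in Lamp5-like, 0.767% in oligodendrocyte-like and 0.441% in astrocyte-like nuclei. DESeq2 called 336 of 12157 genes in Pvalb-like, 37 of 10391 in Lamp5-like, 108 of 11471 in oligodendrocyte-like and 55 of 11783 in astrocyte-like nuclei. Counts of 0 in lists this short cannot be set apart from these backgrounds. An unadjusted p under 0.05 was found for 17.3% of all genes in Pvalb-like and 10.6% in oligodendrocyte-like nuclei. Such a share is not given here for the other 2 classes.

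In astrocyte-like nuclei *Vcan* fell most of all members called. It was at 98.3 and 73.6 CPM (151 and 55 UMIs) in the libraries labelled Sel1L flox/flox and at 13.1 and 17.7 CPM (36 and 20 UMIs) in those labelled Sel1L Syn-Cre. The groups lay far apart, with a log2 fold change of -2.58 (SE 0.25, edgeR adjusted p = 0.00417). It was -2.35 without flox/flox replicate 1, with 1 control library left. Without thinning, a *Vcan* UMI occurred in 22.0% and 16.4% of 455 and 220 nuclei against 4.64% and 5.47% of 755 and 274 nuclei. Median depths were 3016 to 3273 UMIs. In the Inpp5d-led cluster it was found in 0 to 0.524% of nuclei after thinning to 2000 UMIs. These shares are at unlike depth, so the distance to background cannot be read from them. The single richest nucleus held at most 8 UMIs. With a replicate block the edgeR adjusted p was 0.0743 and with thinned pseudobulks 0.114, at log2 fold changes of -2.57 and -2.64. The thinned pseudobulks held 127171 UMIs each, with 2629 genes tested in place of 11783.

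Markers of OPC, the class with the highest *Vcan*, summed to 62.9 to 84.6 CPM in astrocyte-like nuclei of the flox/flox libraries and 40.4 to 63.7 CPM in the others. *Vcan* per OPC marker UMI was 1.16 and 1.17 in the former against 0.171 and 0.179 in OPC-like nuclei of the same libraries. In the libraries labelled Sel1L Syn-Cre it was 0.324 and 0.278 in astrocyte-like and 0.0991 and 0.160 in OPC-like nuclei. In flox/flox replicate 1, OPC markers summed to 86.0 CPM in astrocyte-like nuclei with a *Vcan* UMI and to 84.1 CPM in those without, and in replicate 2 to 39.8 and 68.8 CPM. Astrocyte markers ran from 9886 to 11156 against 10391 to 11480 CPM. *Gm4117*, on the other strand of *Vcan*, was lower too, at 72.9 and 87.0 against 54.2 and 63.7 CPM, groups that did not overlap, and its part in the result was not tested.

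Other astrocytic members were not called. *Tnc*, a tenascin made by astrocytes and progenitors, was at 261 and 147 against 98.3 and 127 CPM (log2 fold change -0.92, SE 0.24, edgeR adjusted p = 0.141). *Bcan* was at 558 and 640 against 512 and 474 CPM (-0.31, SE 0.18, edgeR adjusted p = 0.556), and *Ncan* at 126 and 115 against 102 and 96.5 CPM (-0.31, SE 0.17, adjusted p = 0.54). *Hapln1* overlapped between groups, at 112 and 77.7 against 110 and 80.5 CPM, as did *Tnr* at 62.5 and 56.2 against 48.0 and 80.5 CPM. Hence 1 of 6 members tested was called, beside 0.441% of 11783 genes, with 42.5% of genes in groups that did not overlap. The median log2 fold change was -0.31 for the 6 members and 0.00 for all genes. For the reason given for Pvalb-like neurons, nothing is read from this median.

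**Figure D4:**
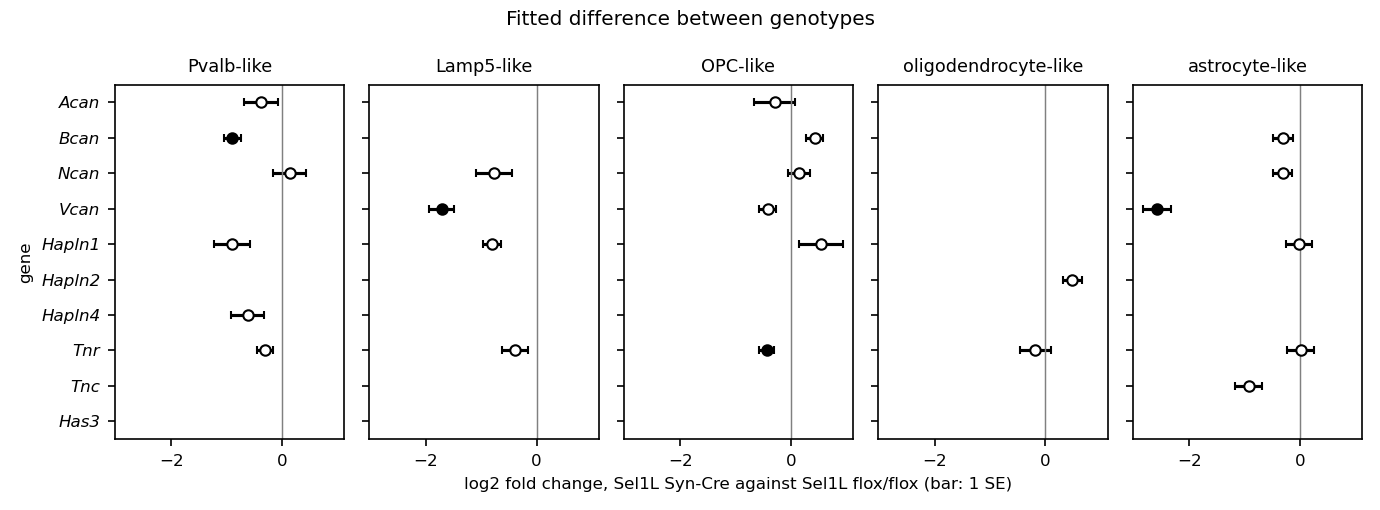
Fitted log2 fold change, Sel1L Syn-Cre against Sel1L flox/flox (horizontal axis, bars 1 SE), of the tested members with at least 20 UMIs per library on average, in 5 classes. Filled points passed the adjusted p threshold of 0.05: *Bcan* in Pvalb-like, *Vcan* in Lamp5-like and astrocyte-like and *Tnr* in OPC-like nuclei, all at negative values.

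Among the classes named after integration, the OPC-like class had the highest flox/flox levels of *Tnr* and *Vcan*. There *Tnr* fell from 4679 and 4514 to 3319 and 3498 CPM (log2 fold change -0.44, SE 0.14, edgeR adjusted p = 0.04). The groups did not overlap, and without flox/flox replicate 1 the value was -0.39, with 1 control library left. The call was lost when either Syn-Cre library was left out, which also leaves 1 library in a group. *Bcan* lay the other way, at 292 and 341 against 461 and 394 CPM (0.43, SE 0.15, edgeR adjusted p = 0.0739), and *Vcan* at 1060 and 1115 against 698 and 937 CPM (-0.42, SE 0.16, adjusted p = 0.103). Neither of these passed, but both did with a replicate block (edgeR adjusted p = 0.0424 for *Bcan* and 0.0157 for *Vcan*). Summed astrocyte markers, from the class with the highest *Bcan*, were at 531 to 658 against 794 to 959 CPM in OPC-like nuclei, and their part in the *Bcan* values was not tested. *Acan* overlapped, at 16.1 and 16.5 against 8.71 and 18.4 CPM, and so did *Ncan* and *Hapln1*. Of 6 members tested 1 was called, beside 8.31% of 11584 genes, so the members' count cannot be set apart from the background, and 46% of all genes had groups that did not overlap. The median log2 fold change was -0.08 beside 0.01.

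The OPC-like class did not hold the same nuclei in both genotypes. When nuclei were clustered without integration, 21.1% and 14.6% of the OPC-like nuclei of the flox/flox libraries were named immature oligodendrocyte-like (premyelinating cells), against 1.76% and 1.21% of those of the Syn-Cre libraries. Markers of immature oligodendrocytes summed to 2747 to 2909 against 1278 to 1307 CPM in the class, and markers of mature ones to 2451 to 3016 against 130 to 252 CPM. Immature oligodendrocyte-like nuclei had 6116 and 6328 CPM of *Tnr* and 642 and 780 CPM of *Vcan* in the flox/flox libraries, where 115 and 64 such nuclei were found. The 9 and 3 nuclei of the Syn-Cre libraries were too few for a level.

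With the classes named that way, *Tnr* in OPC-like nuclei was at 3936 and 3943 against 3253 and 3484 CPM, and the call was lost (log2 fold change -0.22, SE 0.15, edgeR adjusted p = 0.6). *Vcan* was at 1191 and 1189 against 696 and 941 CPM (-0.54, SE 0.16, edgeR adjusted p = 0.0894) and *Bcan* at 276 and 337 against 459 and 392 CPM (0.48, SE 0.15, adjusted p = 0.11), and neither passed.

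**Figure D5:**
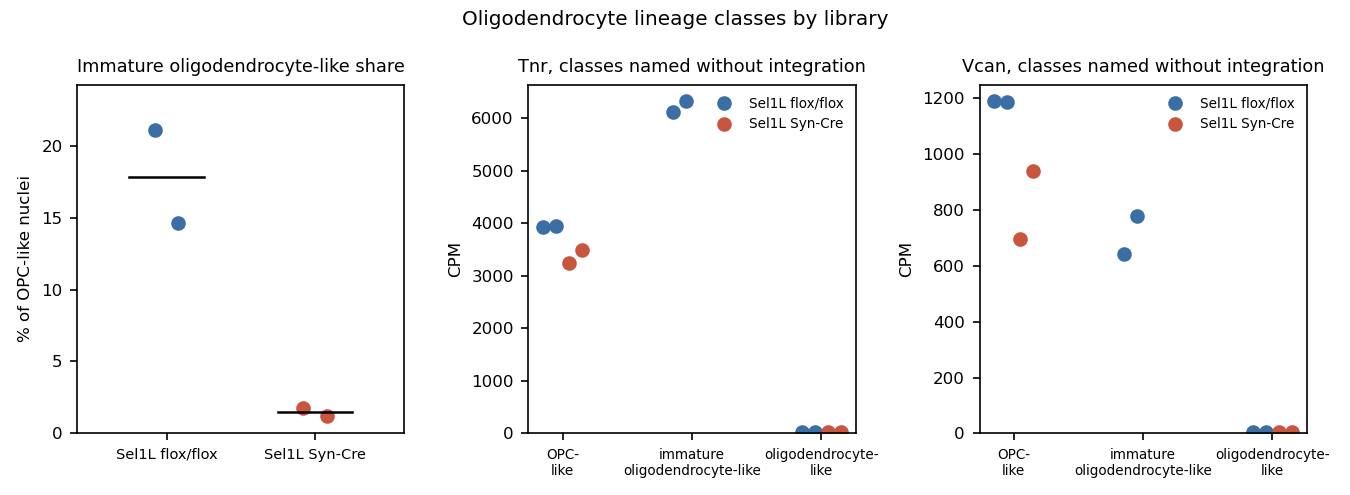
Left, percent of OPC-like nuclei named immature oligodendrocyte-like when clustered without integration, 1 point per library with lines for means, at 14.6% or more in the libraries labelled Sel1L flox/flox and 1.76% or less in the others. Middle and right, CPM of *Tnr* and *Vcan* in 3 lineage classes named that way, 1 point per library with at least 50 nuclei: *Tnr* is highest in the immature class and *Vcan* in the OPC-like class.

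Genes of all 4 lists were called in the OPC-like class, where 8.31% of all genes were. For chondroitin sulfate synthesis, 2 of 17 tested genes rose and 3 fell: *Xylt1*, which starts the chains (log2 fold change 0.58), and *Chst11*, a sulfotransferase (0.52), rose, and *Csgalnact1* (-0.79), *Chsy3* (-1.35), which both build the chains, and the sulfotransferase *Ust* (-1.31) fell. Of 5 hyaluronan genes *Ugdh*, which makes the sugar precursor, rose (0.58) and *Cemip2*, a cell-surface hyaluronidase, fell (-2.06). Of 9 proteases and inhibitors *Adamts9* rose (0.85) and *Adamts4*, an aggrecanase, fell (-3.46, with 45 and 21 against 2 and 1 UMIs). Of 11 further proteoglycans, receptors and partners *Cspg4*, the NG2 proteoglycan of OPCs (0.65), and *Cspg5* (0.51) rose and 0 fell. DESeq2 called 4, 1, 1 and 0 genes of the 4 lists, that is, 0 of the last, beside 456 of all 11584 genes. With names made without integration 0 of the 10 of these 11 genes that were tested there passed, beside 3.08% of 11176 genes. *Ust* was then at -0.15 and *Cemip2* at 0.29, with edgeR adjusted p values of 0.775 and 0.777. *Chsy3* was at -0.67 (edgeR adjusted p = 0.0867), *Adamts9* at 0.50 (adjusted p = 0.353) and *Ugdh* at 0.37 (adjusted p = 0.285). Of the genes tested there, only *Cemip2* changed direction.

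In oligodendrocyte-like nuclei, 0 of 5 members tested were called by edgeR or by DESeq2, and 1 had an unadjusted p under 0.05, beside 0.767% of 11471 genes called and 10.6% with such a p. That member was *Hapln2*, the link protein of nodes of Ranvier, at 318 and 318 against 396 and 516 CPM (log2 fold change 0.49, SE 0.17, edgeR adjusted p = 0.305). Its groups did not overlap, as in 40.7% of all genes, and with a replicate block it was called (edgeR adjusted p = 0.0441). The level per nucleus class stood beside a smaller class: 1848 and 1172 nuclei against 358 and 365, and over the whole library *Hapln2* was at 22.6 and 17.2 against 7.45 and 8.90 CPM. *Tnr* was at 24.0 and 17.8 against 20.5 and 17.5 CPM and overlapped. In the other 14 classes, 65 tests of members gave 0 calls with edgeR and 0 with DESeq2, and 9 had an unadjusted p under 0.05, beside 1.07% of the genes tested in these classes called by edgeR and 11.1% with such a p. *Bcan* in Sst-like neurons was at 15.8 and 19.7 against 12.3 and 8.31 CPM (-0.83, SE 0.31, edgeR adjusted p = 0.13). *Tnr* lay the other way in L2/3 IT-like neurons, at 548 and 411 against 615 and 760 CPM (0.50, SE 0.17, edgeR adjusted p = 0.267), and in L5 ET-like neurons, at 297 and 275 against 348 and 436 CPM (0.40, SE 0.15, edgeR adjusted p = 0.51). Of the 9, 3 were higher and 6 lower in the Syn-Cre libraries. *Vcan* in DG-like neurons was among the 6 (-0.88, SE 0.35, edgeR adjusted p = 0.21). Its fitted value was below 0 in every class in which it was tested except L6 CT-like neurons (0.08, SE 0.27). Over the whole library *Vcan* was at 37.1 and 38.0 against 19.4 and 22.0 CPM. OPC-like nuclei, which held 68.4% of its UMIs, numbered 507 and 424 against 284 and 247.

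Whether the genotype difference itself differed between classes was tested with an interaction term in edgeR, over all genes of each pair of classes. *Vcan* differed between astrocyte-like and OPC-like nuclei, with a log2 fold change lower by 2.09 (SE 0.29, edgeR adjusted p = 4.21e-05), and so did *Tnc* (-1.91, SE 0.54, adjusted p = 0.0427), beside 4.2% of genes called. The *Tnc* call was lost with DESeq2 and with names made without integration, and OPC-like nuclei held 31 *Tnc* UMIs in all. Between Pvalb-like and Sst-like neurons 0 members were called (edgeR, beside 0.755% of genes, with 1 member at an unadjusted p under 0.05), and the difference for *Bcan* was -0.03 (SE 0.34). Between Lamp5-like and Pvalb-like neurons 0 were called by edgeR or DESeq2 (beside 0.555% of genes, with 1 unadjusted p under 0.05, that of *Bcan*), and between oligodendrocyte-like and OPC-like nuclei 0 by either (beside 2.62%, with 0 such p). The *Vcan* difference between Lamp5-like and Pvalb-like neurons was -0.66 (SE 0.53), where *Vcan* had 39 UMIs in Pvalb-like neurons in all.

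The remaining pairs among the 5 classes were added after these results were seen. The change of *Bcan* was lower in Pvalb-like than in OPC-like nuclei (difference of log2 fold changes -1.39, SE 0.18, edgeR adjusted p = 1.15e-07), and that of *Hapln1* differed as well (-1.54, SE 0.49, edgeR adjusted p = 0.0477), beside 5.89% of genes called. Between Lamp5-like and OPC-like nuclei *Vcan* (-1.30, SE 0.25, edgeR adjusted p = 0.00145) and *Hapln1* (-1.40, SE 0.39, edgeR adjusted p = 0.0477) differed, beside 2.85% of genes. Both *Hapln1* calls were lost with DESeq2 and with names made without integration, and the *Vcan* call between Lamp5-like and OPC-like nuclei with DESeq2. No member passed in the other 5 pairs in edgeR, where 1 to 3 members per pair had an unadjusted p under 0.05. Shares of all genes called there at an adjusted p under 0.05 were 1.1% (Pvalb-like against oligodendrocyte-like), 1.64% (Pvalb-like against astrocyte-like), 0.518% (Lamp5-like against oligodendrocyte-like), 0.193% (Lamp5-like against astrocyte-like) and 0.487% (astrocyte-like against oligodendrocyte-like). The share of all genes at an unadjusted p under 0.05 is not given here for any pair of classes. Counts of members at such a p therefore have no background, and nothing is read from them. The OPC-like class is in each of the 3 pairs with a call, and its make-up differed between genotypes as given above.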

How the data were processed

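Nuclei of 4 frozen cortex and hippocampus samples were profiled with a 3′ single-nucleus kit. According to the submitters' processing notes, the authors used Cell Ranger 6.1.0 with GRCm38 and deposited filtered matrices of raw UMI counts; the strand setting and the treatment of introns are not given in the sources used here. Nuclei with over 600 genes and at most 5% mitochondrial UMIs were kept, and 430 to 1256 predicted doublets per library were left out (scrublet in scanpy 1.11.5, at expected rates of 5.89% to 10.1%). Seurat 5.3.0 integrated the libraries on 2000 variable features without the 10 members (17 dimensions, resolutions 0.2 and 0.4), and clusters were named from marker lists.

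UMI counts were summed per class and library. Genotypes were compared with the quasi-likelihood test of edgeR 4.0.16 (R 4.3.3) over all genes that passed its expression filter, Benjamini-Hochberg adjusted p below 0.05, prior count 0.125. DESeq2 1.42.0 was an alternative, beside other normalization, filters, thinning, doublets, naming without integration (Leiden, 20 neighbours), a replicate block and leaving out each library. Shares of nuclei were compared after thinning to 2000 UMIs with exact permutation tests. With 1 mouse per library, n is 2 per genotype. Limits from a count of 0 cover counting error only. The interval of a fold change is a nominal 95% from its fitted error with a normal quantile, narrower than the quasi-likelihood test would give.

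The genes named are all 10 members, and of the list genes those called; fold changes within a class are given for members with at least 20 UMIs per library on average, and differences between classes for all members tested. The members and lists were chosen with earlier results of these data known. That *Vcan* is lower in Lamp5-like neurons was among those results.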

Additional observations from a re-analysis of the deposited data

Results flagged for a closer look

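The genotype difference itself was called as different between classes for 3 pairs. It was lower in astrocyte-like than in OPC-like nuclei for *Vcan* (difference of log2 fold changes -2.09) and *Tnc* (-1.91), lower in Pvalb-like than in OPC-like nuclei for *Bcan* (-1.39) and *Hapln1* (-1.54), and lower in Lamp5-like than in OPC-like nuclei for *Vcan* (-1.30) and *Hapln1* (-1.40), each by an interaction term in edgeR. The *Tnc* call and both *Hapln1* calls were lost with DESeq2 and with names made without integration, and the *Vcan* call between Lamp5-like and OPC-like nuclei with DESeq2. Of all genes, 4.2%, 5.89% and 2.85% were called in the 3 pairs, in the order given. The pairs with Pvalb-like and Lamp5-like neurons were added after earlier results were seen. All 3 pairs hold the OPC-like class, whose make-up differed between genotypes. Cre RNA was at 4.10 CPM in Sel1L flox/flox replicate 1, a library whose label gives no Cre, above the 3.50 and 3.27 CPM of the libraries labelled Sel1L Syn-Cre.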

How the results depend on the processing

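*Bcan* was called in Pvalb-like neurons and *Vcan* in Lamp5-like neurons under every alternative run. Runs with a library left out hold 1 library in a group, so their calls rest on the spread of the other group. Thinned pseudobulks of the glial classes held only 127171 UMIs each. That left 2618 genes tested in place of 11584 in OPC-like nuclei and 2629 in place of 11783 in astrocyte-like nuclei, so a lost call there can reflect depth. In Lamp5-like neurons 2 members (*Vcan* and *Hapln1*) in place of 1 were called with DESeq2 size factors, a minimum of 10 counts per library, no expression filter, doublets kept, names without integration or the replicate block, and 1 to 3 when a library was left out (3 without either flox/flox library). In OPC-like nuclei 0 members were called with thinned pseudobulks, doublets kept or names without integration, 3 with the replicate block (*Bcan*, *Tnr* and *Vcan*), and 0 to 3 when a library was left out. In oligodendrocyte-like nuclei the block gave 1 (*Hapln2*). In astrocyte-like nuclei 2 were called with no filter (*Tnc* and *Vcan*), 0 with thinned pseudobulks or the replicate block, and 1 to 2 with a library left out (*Tnc* also without flox/flox replicate 2). In Pvalb-like neurons 1 to 2 were called with a library left out (*Hapln1* also without Syn-Cre replicate 1). The difference between astrocyte-like and OPC-like nuclei kept 1 member (*Vcan*) with DESeq2 or without integration, that between Pvalb-like and OPC-like 1 (*Bcan*) with either, and that between Lamp5-like and OPC-like 0 with DESeq2 and 1 (*Vcan*) without integration. The difference of the *Acan* share in Pvalb-like nuclei was 0.426 percentage points at 4000 UMIs and -0.992 without thinning.

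The log2 fold change of *Ncan* in OPC-like nuclei was -0.18 without integration and ran from -0.070 to 0.35 with a library left out. *Hapln1* in astrocyte-like nuclei was at 0.015 with at least 10 counts, 0.021 with doublets and 0.077 without integration, and ran from -0.34 to 0.28. *Tnr* in astrocyte-like nuclei was at -0.073 with doublets and -0.0041 with the block, and ran from -0.30 to 0.35. With a library left out, *Ncan* in Pvalb-like neurons ran from -0.18 to 0.66, *Tnr* in Lamp5-like neurons from -0.77 to 0.15, *Acan* in OPC-like nuclei from -0.90 to 0.15 and *Tnr* in oligodendrocyte-like nuclei from -0.37 to 0.063. Of single-gene values, 266 kept direction and call, 19 newly passed, 7 no longer passed and 15 changed sign. The cause was not tested.

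Counts of all genes called moved by over 1.5 times with DESeq2 (336 in place of 617 in Pvalb-like, 456 in place of 963 in OPC-like), without a filter (939 in Pvalb-like, 288 in place of 54 in Lamp5-like, 466 in place of 88 in oligodendrocyte-like, 571 in place of 52 in astrocyte-like), with thinning (337, 117, 0 and 9 in Pvalb-, OPC-, oligodendrocyte- and astrocyte-like), with doublets (411 and 544 in Pvalb- and OPC-like, 85 in Lamp5-like, 11 in oligodendrocyte-like), without integration (140 in Lamp5-like, 344 in OPC-like, 138 in oligodendrocyte-like) and with the block (928 in Pvalb-like, 104, 522 and 3 in Lamp5-, oligodendrocyte- and astrocyte-like). With a library left out they ran from 385 to 900 in Pvalb-like, 98 to 508 in Lamp5-like, 529 to 1072 in OPC-like, 78 to 438 in oligodendrocyte-like and 31 to 506 in astrocyte-like nuclei. Genes whose genotype difference differed between classes numbered 107 with DESeq2 and 236 without integration in place of 541 (astrocyte-like against OPC-like), 181 and 367 in place of 815 (Pvalb-like against OPC-like), 88 and 169 in place of 341 (Lamp5-like against OPC-like) and 107 and 112 in place of 322 (oligodendrocyte-like against OPC-like), and 12 with DESeq2 in place of 71 (Lamp5-like against Pvalb-like).

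The labels do not say that replicate numbers pair the mice. Deviations of libraries with the same number correlated at 0.127 (Pvalb-like), 0.128 (Lamp5-like), 0.149 (OPC-like), 0.190 (oligodendrocyte-like) and -0.035 (astrocyte-like) across genes, and the numbers go with *Ddx3y* and *Xist*. Leave-one-out with a fixed dispersion was not run; a quasi-likelihood fit chosen after seeing the data assumes that the lone library varies like the other group. With 2 libraries per genotype, depth limited rare members such as *Acan* and *Hapln4*.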
